A study of Mus musculus with 20 samples.

Results

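Kirrel2, Kirrel3, Nrp1, Plxna1, Sema3a, Sema3f, Robo2, Efna5, Epha5 and Pcdh10 encode guidance and adhesion molecules by which olfactory axons find and sort into glomeruli. The genes were chosen by name, and every probe set annotated to one of them was read in all 4 groups. Of the 10 listed genes, 9 had 1 probe set each among the 22206 gene probe sets, and Nrp1 was not analysed here. The samples were cells of the mouse olfactory mucosa from S100a5-tauGFP animals of both sexes, 7 to 12 weeks old. S100a5 is a calcium-binding protein that olfactory sensory neurons make when they are active, so the reporter sorts recently active neurons into the GFP+ fraction. All mice, controls too, carried the reporter and sat singly for 40 h in chambers with clean air flowing at 3.1 L/min. Starting at 26 h, stimuli of 10 s came at intervals of 20 min, with filtered air for the vehicle groups or an artificial cigarette smoke odor for the odor groups. The series' design text names bourgeonal as the odorant, whereas title and sample labels name the smoke odor, which is followed here. Each pool joined the mucosa of 3 mice, whose cells were dissociated and then separated by fluorescence into GFP+ and GFP-, which gave 5 vehicle pools, 5 odor pools and 20 samples, each on 1 Clariom S array. The questions were which guidance genes differed between the active and inactive fractions, and whether the odor altered their levels.

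Each mature olfactory sensory neuron expresses 1 odorant receptor, and axons of neurons with the same receptor converge on common glomeruli in the olfactory bulb. Coarse position in the bulb is set by secreted cues and their receptors, among them Slit ligands with Robo2, Sema3f with neuropilin-2, and Sema3a with neuropilin-1 and its partner plexin-A1. Local sorting of axons depends on molecules whose transcription follows neuronal activity: the homophilic adhesion proteins Kirrel2 and Kirrel3, which are known for complementary patterns, and ephrin-A5 with its receptor EphA5, which repel each other. Pcdh10 is a homophilic non-clustered protocadherin that is likewise present in subsets of glomeruli.

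The RefSeq promoters (build GRCm38.p6, 250 bases before to 50 after the start) of 3 genes are shown. The difference between fractions was largest for Kirrel2 and Pcdh10, and Epha5 was higher in every GFP+ sample than in its GFP- partner. The promoters are written 5′ to 3′ along the gene's own strand. Kirrel2 lies at chr7:30457466-30457765 on the minus strand, Pcdh10 at chr3:45378148-45378447 on the plus strand and Epha5 at chr5:84417333-84417632 on the minus strand. Capitals mark matches to the motifs searched, as described after the sequences.
Kirrel2: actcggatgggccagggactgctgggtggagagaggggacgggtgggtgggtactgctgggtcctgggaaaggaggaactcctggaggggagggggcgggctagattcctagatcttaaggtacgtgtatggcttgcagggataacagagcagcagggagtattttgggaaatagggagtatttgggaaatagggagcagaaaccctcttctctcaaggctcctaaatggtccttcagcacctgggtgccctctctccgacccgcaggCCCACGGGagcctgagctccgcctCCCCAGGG
Pcdh10: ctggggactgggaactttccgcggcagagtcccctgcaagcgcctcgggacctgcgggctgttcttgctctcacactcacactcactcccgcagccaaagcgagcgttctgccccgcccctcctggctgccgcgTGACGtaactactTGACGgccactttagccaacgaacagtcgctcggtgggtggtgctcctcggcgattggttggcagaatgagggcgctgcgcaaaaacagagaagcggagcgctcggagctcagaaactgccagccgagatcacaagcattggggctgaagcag
Epha5: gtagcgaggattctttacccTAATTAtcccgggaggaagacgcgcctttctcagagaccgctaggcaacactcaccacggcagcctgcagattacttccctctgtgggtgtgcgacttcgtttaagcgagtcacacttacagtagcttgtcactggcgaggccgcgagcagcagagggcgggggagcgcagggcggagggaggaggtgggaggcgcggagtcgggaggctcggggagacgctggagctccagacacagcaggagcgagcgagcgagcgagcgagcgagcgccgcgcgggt

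Of the 10 listed genes, 7 had a promoter in the RefSeq table, and both strands were searched for 4 motifs. These were CCCNNGGG, a core of sites bound by Ebf factors in olfactory neurons; TAATTA, a core of homeodomain sites; TGACGTCA, the palindromic cAMP response element; and TGACG, its shortened form, which every TGACGTCA contains. The Kirrel2 promoter held 2 matches to CCCNNGGG, beginning 19 and 43 bases after the start, a motif found in 13.7% of 32544 promoters of the same length. Pcdh10 held 2 matches to TGACG, beginning at positions -116 and -103 from the start, against 20.9% of promoters with at least 1. Epha5 held 1 match to TAATTA at position -230, which 5.29% of promoters hold. Among the promoters not printed, 1 of Robo2 held a match to CCCNNGGG at position -208, and the rest held no match. TGACGTCA, present in 1.8% of promoters, was in none of the promoters printed. A match describes these letters only, and none was linked to a measurement of binding.

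The reporter check came first. S100a5 was higher in GFP+ than in GFP- cells in 10 of 10 pools, by 1.73 on the log2 scale (SE 0.25, n = 10 pools, limma adjusted p = 0.000239). Omp, the marker of mature olfactory neurons, lay between 18.95 ± 0.70 (SD, n = 5) in vehicle GFP- and 19.32 ± 0.58 in odor GFP+. Its difference was 0.17 (95% confidence interval -0.18 to 0.52, limma adjusted p = 0.587), but Omp lay only 0.09 to 0.61 below the brightest signal of its array, so a true difference may be compressed. Values are log2 signals, and the 23 background control probe sets had medians of 5.14 to 6.34 per array. The 4 arrays numbered 5, 1 per group, stood apart with median gene signals of 7.03 to 7.46 against 6.06 to 6.39 on the other 16. Vehicle GFP- 1, vehicle GFP+ 2 and odor GFP- 2 correlated less with their group (mean r 0.895, 0.946 and 0.951) than the other arrays numbered 1 to 4. The next arrays, vehicle GFP- 3 and vehicle GFP- 4, followed closely at 0.953 and 0.956, so the line between them is not sharp. Results are therefore also given without both pools numbered 5, and without the 3 pools that hold an array in doubt. No more than 0.00901% of the values of any pair of arrays were equal.

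Over all 10 pools, 2 of the 9 measured genes were higher in GFP+ cells and 0 were lower. Pcdh10 was 2.97-fold higher (95% confidence interval 1.76 to 4.99) and Epha5 1.67-fold (1.31 to 2.14). Among all 22206 probe sets, 4.61% were called higher and 9.39% lower at a limma adjusted p below 0.05, with a median log2 change of 0.09, or 1023 higher and 2086 lower. Centring each array on its median moved that median to 0.32 and the split to 4307 higher and 1674 lower, so small changes depend on the scaling. The 9 genes had a median of 0.00, and 3 of them had an unadjusted p below 0.05, the third being Kirrel2 at 2.83-fold (1.35 to 5.90, adjusted p = 0.0621). In vehicle pools alone 1 of 9 was called higher, Epha5, against 2.26% of all probe sets called higher and 6.86% lower. In odor pools 0 of 9 were called, with 2 at an unadjusted p below 0.05, against 2.07% and 5.82%.

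**Figure D1:**
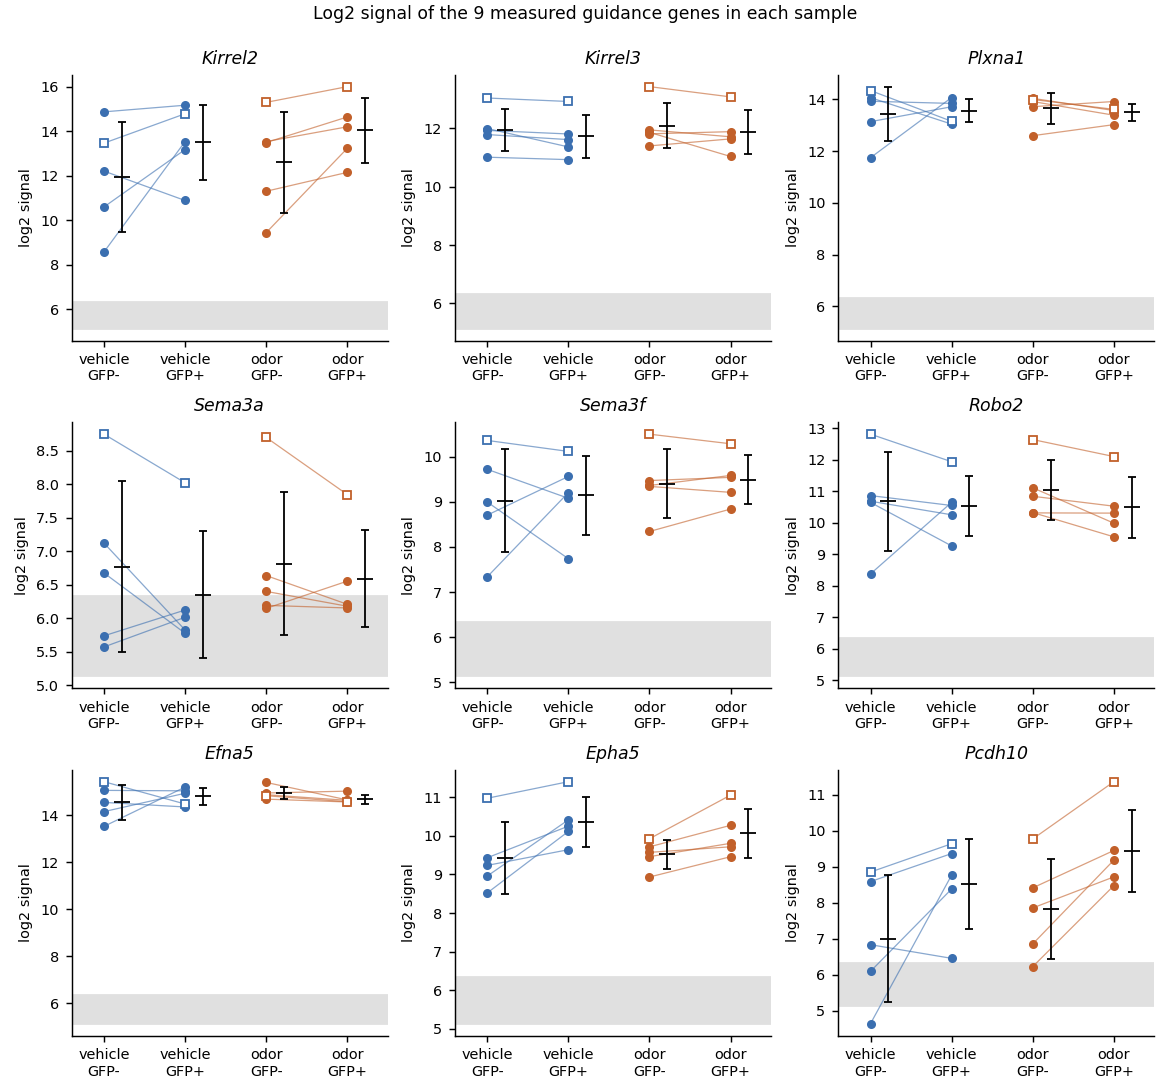
Log2 signal (vertical axis) of the 9 measured genes in each of the 20 samples, with lines joining the GFP- and GFP+ fraction of 1 pool, blue for vehicle and orange for odor; open squares are the arrays numbered 5, black bars are the mean ± SD of 5, and the grey band spans the background control medians of 5.14 to 6.34. The lines of Pcdh10 rise in 9 of 10 pools and those of Epha5 in 10 of 10, while Sema3a lies in or near the grey band outside the arrays numbered 5.

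Kirrel2, an immunoglobulin-family adhesion protein, varied more between samples than any other of the 9 genes. In vehicle pools 1 to 5 its log2 signal was 8.58, 12.21, 10.60, 14.87 and 13.46 in GFP- cells and 13.54, 10.89, 13.18, 15.17 and 14.78 in GFP+ cells. The odor pools had 11.30, 9.44, 13.54, 13.49 and 15.29 in GFP- cells and 12.15, 13.23, 14.20, 14.64 and 16.00 in GFP+ cells. GFP+ cells had the higher signal in 9 of 10 pools, vehicle pool 2 being the exception, and the fractions overlapped widely. Pool differences were 4.96, -1.32, 2.58, 0.30 and 1.32 in vehicle and 0.85, 3.79, 0.66, 1.15 and 0.71 in odor. Both the largest rises and the only fall were in the 3 pools that hold an array in doubt. The mean difference was 1.50 (SE 0.49, limma adjusted p = 0.0621), 1.57 in vehicle (adjusted p = 0.25) and 1.43 in odor (adjusted p = 0.343). Without the 3 pools in doubt it was 1.12 with an adjusted p of 0.00421, and without vehicle pool 2 alone 1.86 with an adjusted p of 0.00921, so the call turned on those pools. Without both pools numbered 5 it was 1.62 with an adjusted p of 0.149.

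Group means of Kirrel2 ran from odor GFP+ (14.04 ± 1.45, SD, n = 5) through vehicle GFP+ (13.51 ± 1.68) and odor GFP- (12.61 ± 2.27) to vehicle GFP- (11.94 ± 2.45). No neighbours in that order differed by more than their SD.

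Kirrel3, the paralogue with the complementary pattern, was steadier. Its group means lay between 11.73 ± 0.74 in vehicle GFP+ and 12.09 ± 0.78 in odor GFP- (SD, n = 5), and all 20 values between 10.93 and 13.43. GFP+ cells had the lower signal in 8 of 10 pools, including 5 of 5 vehicle pools, but the mean difference of -0.22 (SE 0.14) did not pass the test (limma adjusted p = 0.378) and was 0.00 with arrays centred on their median. The paralogues were therefore compared within pools. The difference of Kirrel2 exceeded that of Kirrel3 by 1.72 log2 units (SD 1.65) and was the larger of the pair in 9 of 10 pools. The exact sign-flip test over pools gave a two-sided p of 0.00586, or 0.0146 after Benjamini-Hochberg adjustment over 5 such tests, where 0.00195 is the smallest p that 10 pools allow. Without the 3 pools in doubt the excess was 1.33, present in 7 of 7 pools.

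Pcdh10 had the largest called change of the group. In vehicle pools 1 to 5 its log2 signal was 4.64, 6.83, 6.09, 8.59 and 8.85 in GFP- cells and 8.77, 6.45, 8.38, 9.37 and 9.64 in GFP+ cells. The corresponding odor values were 7.85, 6.22, 6.85, 8.41 and 9.77 in GFP- cells and 8.72, 8.48, 9.19, 9.45 and 11.37 in GFP+ cells. GFP+ was the higher fraction in 9 of 10 pools, again all but vehicle pool 2, although the ranges of the fractions overlapped. On 1 array, vehicle GFP- 1, Pcdh10 lay 0.95 below the background control median, so its level there is not resolved and the size of that pool's difference, 4.13, is uncertain. The mean difference was 1.57 (SE 0.35, limma adjusted p = 0.00649), 1.52 in vehicle (adjusted p = 0.0799) and 1.62 in odor (adjusted p = 0.0682). It was 1.66 (adjusted p = 0.0283) without both pools numbered 5 and 1.37 (adjusted p = 0.000993) without the 3 pools in doubt. Group means followed the same order as for Kirrel2: 9.44 ± 1.14 in odor GFP+, 8.52 ± 1.26 in vehicle GFP+, 7.82 ± 1.38 in odor GFP- and 7.00 ± 1.76 in vehicle GFP- (SD, n = 5). Neighbours again lay within their SD.

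Epha5, a receptor tyrosine kinase that binds ephrin-A ligands, rose by less but most evenly. Vehicle GFP- samples 1 to 5 had log2 signals of 8.52, 9.43, 9.23, 8.96 and 10.97, and their GFP+ partners 10.11, 10.25, 9.64, 10.41 and 11.40. In odor pools the values were 8.93, 9.71, 9.57, 9.46 and 9.92 in GFP- and 9.46, 10.27, 9.72, 9.81 and 11.05 in GFP+. Every GFP+ sample was above its GFP- partner, by 0.41 to 1.59 in vehicle and by 0.14 to 1.13 in odor, though the ranges overlapped. The mean difference was 0.74 (SE 0.16, limma adjusted p = 0.00678). It was 0.94 in vehicle pools (SE 0.23, adjusted p = 0.0193) and 0.54 in odor pools (SE 0.23, adjusted p = 0.26). Over all pools the call held at 0.73 (adjusted p = 0.0258) without both pools numbered 5 and at 0.65 (adjusted p = 0.029) without the 3 pools in doubt. The call in vehicle pools ended without vehicle pool 1 (0.78, adjusted p = 0.0548), without vehicle pool 4 (0.81, adjusted p = 0.0897) and without the 3 pools in doubt (0.76, adjusted p = 0.124). The order of group means was vehicle GFP+ (10.36 ± 0.65), odor GFP+ (10.06 ± 0.63), odor GFP- (9.52 ± 0.37) and vehicle GFP- (9.42 ± 0.93), with neighbours closer than the larger SD of each pair.

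Efna5, the ligand of EphA5, did not follow its receptor. Its log2 signals lay between 13.52 and 15.42 in all samples, the mean difference was 0.00 (SE 0.22, limma adjusted p = 0.999), and GFP+ was lower in 7 of 10 pools. In vehicle pools the difference was 0.26 and in odor pools -0.26. Within pools the difference of Epha5 exceeded that of Efna5 by 0.74 log2 units (SD 0.70), with 8 of 10 pools in that direction (exact sign-flip test, two-sided p = 0.0137, adjusted p = 0.0228). Without both pools numbered 5 the excess was 0.58 with an exact p of 0.0547.

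**Figure D2:**
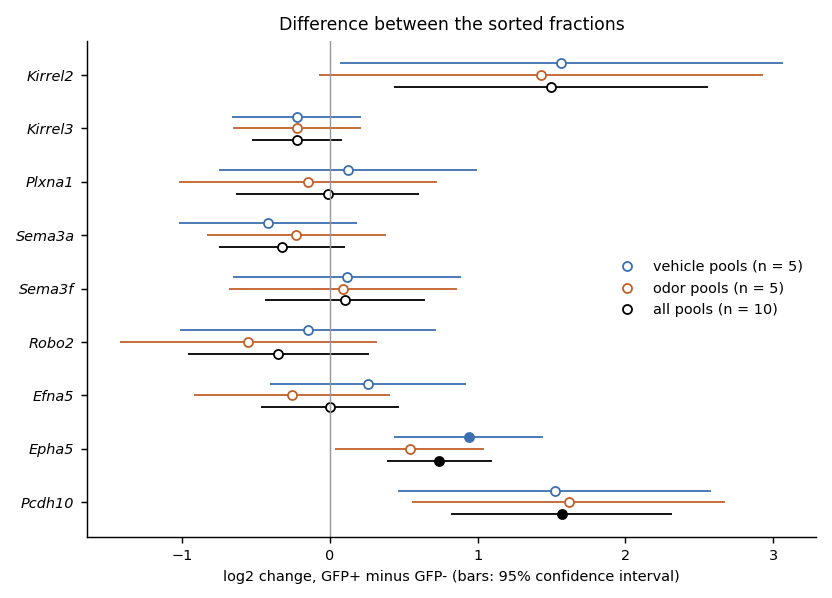
Log2 change from GFP- to GFP+ (horizontal axis) of the 9 genes with 95% confidence intervals from the limma fit, for the 5 vehicle pools (blue), the 5 odor pools (orange) and all 10 pools (black); filled points passed an adjusted p of 0.05. Filled points are those of Epha5 in vehicle pools and over all pools and of Pcdh10 over all pools, and the blue and orange intervals of each gene overlap.

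The semaphorin, plexin and Robo genes among the 9 did not pass the test in any comparison of the fractions in the main fit. Plxna1, the signalling partner of neuropilin-1, differed by -0.01 (95% confidence interval -0.63 to 0.60) and its 20 log2 signals lay between 11.75 and 14.34. Sema3f, the secreted ligand of neuropilin-2, differed by 0.10 (-0.44 to 0.65), with signals from 7.34 to 10.50 and GFP+ higher in 5 of 10 pools. Both genes had their lowest signal on vehicle GFP- 1, an array in doubt, as did all of the 9 genes except Kirrel3. The pool of that array also gave the largest differences of Kirrel2 (4.96), Pcdh10 (4.13) and Epha5 (1.59). Sema3a, the secreted ligand of neuropilin-1, differed by -0.32 (-0.75 to 0.10). Its signals were near background: outside the arrays numbered 5 they lay between 5.57 and 7.12, and the gene was 0.02 below to 2.73 above the background control median of its array. A change in Sema3a would have been hard to see at that signal. Robo2, the Slit receptor, read lower in the GFP+ fraction of 9 of 10 pools, vehicle pool 1 being the exception, with a mean difference of -0.35 (SE 0.28, limma adjusted p = 0.51). In that pool Robo2 read 8.38 in GFP- and 10.65 in GFP+. Without it the difference was -0.65 with an adjusted p of 0.0131, and without all 3 pools in doubt -0.52 with an adjusted p of 0.0551.

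No effect of the odor on any of the 9 genes was called. The difference between the sort in odor pools and that in vehicle pools was called for 0% of all 22206 probe sets by limma, with 269 at an unadjusted p below 0.05, and 0 of the 9 genes were among these. It was -0.14 for Kirrel2 (95% confidence interval -2.26 to 1.99), 0.09 for Pcdh10 (-1.40 to 1.59) and -0.40 for Epha5 (-1.11 to 0.31). The intervals leave room for changes of several-fold in Kirrel2 and Pcdh10, so a missing call does not show equal levels. Kirrel3 had the narrowest interval, 0.01 (-0.61 to 0.62), and Efna5 the largest estimate, -0.51 (-1.45 to 0.42). Odor against vehicle in GFP+ cells was likewise called for 0% of probe sets, with 61 at an unadjusted p below 0.05. The largest estimates among the 9 genes there were those of Pcdh10 (0.92, -0.51 to 2.35) and Kirrel2 (0.53, -1.30 to 2.37). In GFP- cells 0% were called, with 30 at an unadjusted p below 0.05, and the estimates were 0.82 (-1.04 to 2.69) for Pcdh10 and 0.67 (-2.06 to 3.40) for Kirrel2. None of the 9 genes had an unadjusted p below 0.05 in either fraction. Only 0.275% of all probe sets in GFP+ cells and 0.135% in GFP- cells did, and 1.21% for the difference between the sorts. Chance alone would give a share of about 0.05 of the probe sets. The p-values of these limma fits thus ran high, so the lack of low values cannot decide whether the odor altered the 9 genes.

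Kirrel2 and Pcdh10 shared their pattern over pools. Across the 10 pool differences Pearson's r was 0.87 (permutation p = 0.00098, 0.00233 adjusted over 5 relations) and Spearman's rho was 0.62 (permutation p = 0.0598, adjusted 0.0996). After the pools farthest from the median of Kirrel2 were left out, vehicle 1 and odor 2, r was 0.73 (n = 8). Each condition holds 5 pools, too few for a value within it. Without both pools numbered 5, r was 0.90. Both genes are read from the same arrays, so the points share pool and array. The swing between vehicle pools 1 and 2 was not particular to this pair. Sema3f and Robo2 also had their highest difference in vehicle pool 1 (1.87 and 2.27) and their lowest in vehicle pool 2 (-1.26 and -1.38). Correlations between other genes of the 9 were not computed.

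Markers of mature neurons moved with Kirrel2 and Pcdh10. The median difference over 12 mature neuron genes (Omp, Adcy3, Cnga2 and others) was 2.14, -0.37, 0.95, -0.18 and 0.33 in vehicle pools 1 to 5 and 0.44, 0.88, 0.20, 0.41 and 0.21 in odor pools. It was thus highest in the pool where Kirrel2 and Pcdh10 differed most and lowest in vehicle pool 2, where both read lower in GFP+ cells. Its correlation with Kirrel2 was r = 0.95 (permutation p = 4e-05, adjusted 0.0002) with rho 0.94, and r was 0.94 without the 2 farthest pools. With Pcdh10 it was r = 0.89 (permutation p = 0.0014, adjusted 0.00233) with rho 0.66 (permutation p = 0.043, adjusted 0.0996), and r was 0.57 without the 2 farthest pools, vehicle 1 and vehicle 2. No relation with the reporter gene passed: r with S100a5 was -0.49 for Kirrel2 (permutation p = 0.148) and -0.45 for Pcdh10 (permutation p = 0.189). Without the 2 farthest pools these were -0.06 and 0.10, so the negative values rested on those pools. In a bulk sample, fewer cells of a type and less RNA per cell cannot be told apart.

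**Figure D3:**
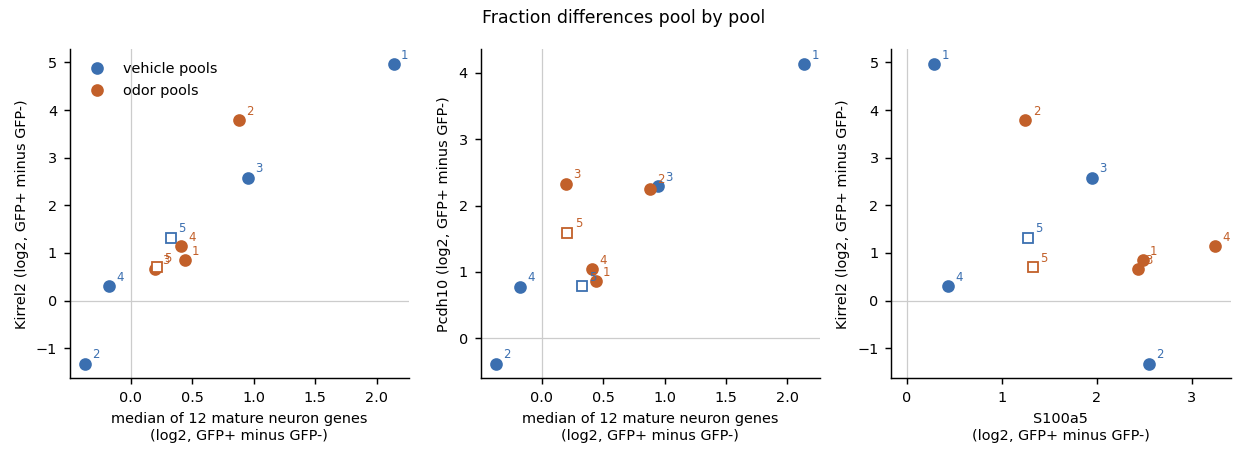
Pool differences, GFP+ minus GFP- in log2 units, of Kirrel2 and Pcdh10 (vertical axes) against the median of 12 mature neuron genes or against S100a5 (horizontal axes); each point is 1 pool with its number, blue for vehicle, orange for odor, open squares for the pools numbered 5. Kirrel2 rises with the neuron genes (r = 0.95), with vehicle pool 1 at the top and vehicle pool 2 at the bottom, and shows no such rise with S100a5 (r = -0.49).

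Set against that neuron median within each pool, Pcdh10 had a larger difference by 1.07 log2 units (SD 0.70), in 9 of 10 pools (exact sign-flip test, two-sided p = 0.00391, adjusted p = 0.0146). Kirrel2 exceeded it by 1.00 (SD 1.17), also in 9 of 10 pools (exact p = 0.0215, adjusted p = 0.0269), but the exact p was 0.0703 without both pools numbered 5. Epha5 exceeded it by 0.24 in 5 of 10 pools (exact p = 0.336). Its differences spanned 0.14 to 1.59 over the pools and the neuron median -0.37 to 2.14. The 3 genes compared here are those of the 9 with an unadjusted p below 0.05 in these same pool differences. An excess was favoured by that choice, which the adjusted p does not cover, so these tests are no independent support. The same limit applies to the sign-flip tests of Kirrel2 against Kirrel3 and of Epha5 against Efna5, since Kirrel2 and Epha5 are among these 3 genes.

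The genes whose pattern over the 20 samples was most like Epha5 were Ift81, Ttc19 and Efcab12, with root mean square differences of 0.33 to 0.34 log2 units after centring, against 0.62 for Epha5's own spread. For Pcdh10 they were Kcnmb3 (0.48), Spred2 (0.57) and Inpp5f (0.58), against an own spread of 1.44. This likeness is a description over 20 samples that share arrays.

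The wider guidance families were read from 8 lists with 117 distinct genes, the 9 genes included. Of these, 112 were measured, 8 were higher in GFP+ cells over all pools and 5 lower, beside 4.61% and 9.39% of all probe sets.

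Among semaphorins, plexins and neuropilins, 4 of 29 measured genes were higher and 0 lower, with a median of 0.12. Sema3e, the secreted ligand of plexin-D1, rose by 1.05 (limma adjusted p = 0.00012, 10 of 10 pools), from 8.44 ± 1.12 to 9.35 ± 1.11 in vehicle and from 8.44 ± 0.86 to 9.62 ± 0.65 in odor (SD, n = 5). It was called in each condition, at 0.91 (adjusted p = 0.00904) and 1.18 (adjusted p = 0.00157). Sema7a, a membrane-anchored semaphorin, rose by 1.49 (adjusted p = 0.0155, 10 of 10 pools), and its lowest signal, 7.88, was in the vehicle GFP- group, where the mean was 11.79 ± 2.31. Sema6c, a transmembrane semaphorin, rose by 0.89 (adjusted p = 0.00517, 10 of 10 pools). Plxnb3, a plexin receptor, rose by 0.69 (adjusted p = 0.0376, 9 of 10 pools), a call held in 10 of 19 alternatives.

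The non-clustered protocadherins had 3 of 11 measured genes higher and 1 lower, with a median of 0.37. Besides Pcdh10, Pcdh8 rose by 1.39 (limma adjusted p = 0.000464, 10 of 10 pools) and was called in vehicle (1.47, adjusted p = 0.00715) and in odor pools (1.32, adjusted p = 0.0163). Its means went from 8.99 ± 1.15 to 10.45 ± 0.71 and from 9.18 ± 1.36 to 10.50 ± 1.03 (SD, n = 5). Pcdh7 rose by 1.45 (adjusted p = 0.0179, 10 of 10 pools), a call that ended without odor pool 2 (adjusted p = 0.0524). Pcdh20 fell by 0.53 (adjusted p = 0.0437), but its group means of 3.28 to 3.83 lay below the background controls and the call held in 6 of 18 alternatives.

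Ephrins and Eph receptors had 1 of 21 measured genes higher, Epha5, and 1 lower, with a median of -0.10. Ephb6, an Eph receptor that lacks kinase activity, fell by 0.70 (limma adjusted p = 0.0127), at group means of 4.12 to 4.86 that were also below the background controls. Of 17 immunoglobulin adhesion molecules, Kirrel2 and Kirrel3 among them, 0 were higher and 2 lower. Alcam fell by 1.52 (adjusted p = 3.34e-05, lower in 10 of 10 pools), from 9.73 ± 0.82 to 8.06 ± 0.58 in vehicle and from 9.61 ± 0.49 to 8.24 ± 0.65 in odor (SD, n = 5). Nrcam, a neuronal adhesion molecule, fell by 1.00 (adjusted p = 0.00523), with means of 4.50 to 5.62 near background, and the call ended without both pools numbered 5 (adjusted p = 0.0519).

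In 3 other guidance lists 0 genes passed. Of the 7 Slits and Robos, Slit1, a Robo ligand, had the smallest p with 0.67 (limma adjusted p = 0.0552), and of 11 measured netrins and receptors it was Unc5b with 0.39 (adjusted p = 0.291). Among 10 teneurins, latrophilins and Flrt proteins Tenm3 had the smallest p, at -0.33 (adjusted p = 0.197). The receptor-driven cAMP list, whose signal sets the levels of several guidance receptors, had 1 of 6 genes lower and 0 higher, with a median of 0.29. That gene was Gnas, the widely expressed stimulatory G protein subunit, which fell by 3.37 (adjusted p = 2.31e-06) from 10.25 ± 1.25 to 6.70 ± 0.86 in vehicle and from 10.14 ± 0.93 to 6.96 ± 0.69 in odor (SD, n = 5).

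**Figure D4:**
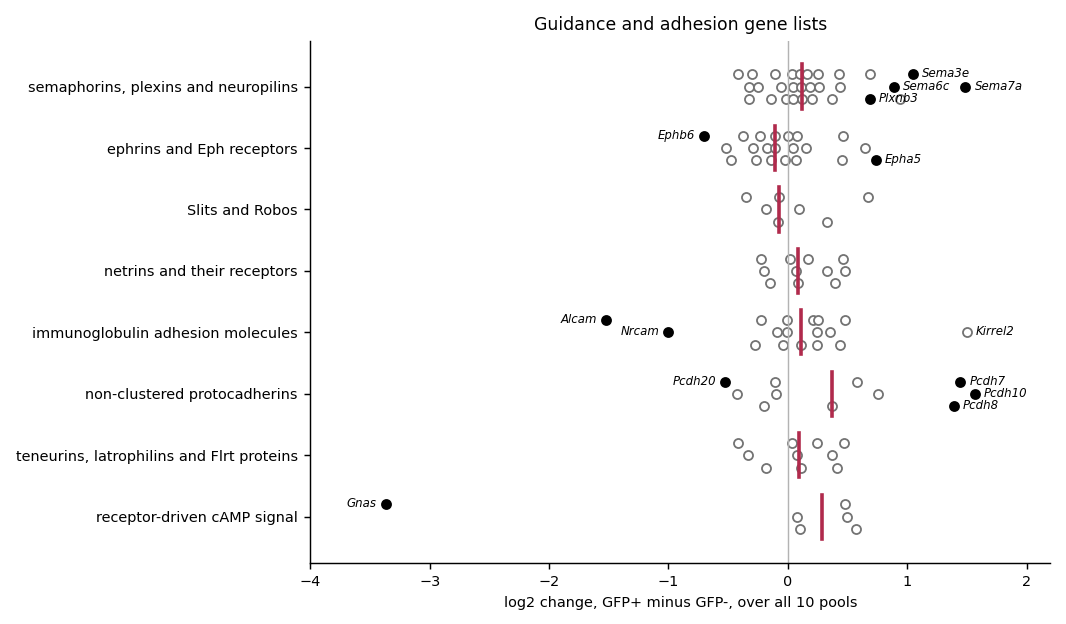
Log2 change from GFP- to GFP+ over all 10 pools (horizontal axis) of each measured gene in 8 guidance and adhesion lists; filled and named points passed an adjusted p of 0.05, Kirrel2 is named as an open point, and the red bars are list medians. Most points lie within 0.5 of 0, and Gnas lies farthest away at -3.37.

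The cell mix of the fractions differed beside these changes. All 10 measured white blood cell markers were lower in GFP+ cells, with a median of -6.92, and their summed log2 signal was 18.63 to 20.40 in GFP- samples and 9.76 to 10.40 in GFP+ samples; the lowest were Lcn2 (-11.12), Ngp (-10.78) and S100a8 (-10.22). Of 8 microvillar cell markers 6 were lower, Hepacam2 by -4.74 and Trpm5 by -4.44, with sums of 11.32 to 13.66 against 8.33 to 9.28. Immature neuron markers had 4 of 10 lower, led by Gng8 (-4.12), Dpysl3 (-3.55) and Gap43 (-2.54), but their sums overlapped at 15.11 to 17.54 and 15.47 to 17.14. The median of that list was -0.48. Its genes Hdac9 (0.47), Tubb3 (0.42), Lhx2 (0.31) and Dcx (0.23) went the other way without passing. Basal and cycling markers had 3 of 7 measured lower (Mki67 -5.24, Kit -4.09, Top2a -1.68), with sums of 9.45 to 12.78 against 7.24 to 8.12. In that list Krt5 (0.08), Krt14 (0.19), Trp63 (-0.05) and Neurog1 (-0.58) did not pass. Sustentacular and gland markers had 4 of 8 lower, led by Sox9 (-4.30), with sums of 13.85 to 16.08 and 11.49 to 15.60. Endothelial and stromal markers had 1 of 9 lower, Pecam1 (-1.09), with a list median of 0.00. Their sums overlapped at 8.23 to 9.34 and 7.80 to 9.01. Ensheathing glia markers had 2 of 6 measured lower, Erbb3 (-0.71) and Sox10 (-0.47), calls held in 8 of 18 and 5 of 19 alternatives. Npy (0.24), S100b (0.20) and Fabp7 (0.09) read higher without passing. The glia median was 0.01, and the sums overlapped at 7.07 to 8.61 and 7.00 to 8.33. Against background control medians of 5.14 to 6.34 per array, the sums over 6 glia genes and over 9 endothelial and stromal genes were low. The size of a fall in either list is therefore poorly resolved. Mature neuron markers had 2 of 12 higher, Pde1c (0.97) and Ano2 (0.72), with sums of 20.10 to 21.30 in GFP- and 20.49 to 21.54 in GFP+. The part of these cell types in the changes of the guidance genes was not tested.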

How the data were processed

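The 20 samples were sorted mouse olfactory mucosa cells on Clariom S arrays, processed with Affymetrix Expression Console per the submitters' processing notes; neither its version nor the normalization is given in the sources used here. From their range, the authors' deposited values are log2 signals, and no further normalization was applied. The table had 28846 rows, of which 6640 were control probe sets and were not tested. Probe sets were named through the platform annotation, which gave 19572 a symbol, and a gene with several probe sets was represented by the one of highest mean.

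The differences GFP+ minus GFP- within the 10 pools entered 1 fit with limma 3.58.1 in R 4.3.3 (lmFit, eBayes), with Benjamini-Hochberg adjustment over all 22206 gene probe sets and a threshold of 0.05. Odor was compared with vehicle in each fraction on 10 samples. That both fractions of a pool came from the same 3 mice follows the labels. In GFP+ cells, the deviations of odor and vehicle samples with the same number from their group means correlated at 0.25, 0.52, 0.35, 0.16 and 0.86. The numbers may thus pair there. In GFP- cells these correlations were 0.14, -0.38, 0.28, 0.20 and 0.84, and for the pool differences -0.31, -0.48, 0.16, -0.14 and 0.21, so the numbers were not taken to pair in these. The odor results given above held no term for the number, also in GFP+ cells, so their intervals carry the spread between numbers. A block on the number was tried as an alternative in each odor comparison. Pool differences of a gene against those of another gene or of the neuron median were tested by exact sign-flip over pools. Correlations were tested with 100000 permutations (scipy 1.17.1). Named besides the listed genes were S100a5 and Omp, up to 4 called genes of each guidance list by size of change (or that with the smallest p), up to 3 of each marker list and the 3 genes most like each called member. The listed genes and all lists were chosen with earlier results of these data known.

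Alternatives were quantile normalization, centring, a filter on the dimmest 25%, an intensity trend, array weights, no pairing of the fractions, the block, leaving out both pools numbered 5 or each pool in turn and, chosen after seeing the data, a term for the arrays numbered 5 and leaving out 3 pools in doubt. The number of arrays limits the precision.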

Additional observations from a re-analysis of the deposited data

Results flagged for a closer look

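In groups of 5, the highest or lowest sample was compared with its nearest neighbour relative to the range. Of 54 such sets for the 9 genes, 8 had a sample beyond the 95% limit, and in 4 of these it was an array numbered 5. Independent sets would give about 1 in 20 by chance. These sets share arrays, and the pool differences reuse the same signals, so the 8 cannot be read against that rate. Kirrel3 in odor GFP- cells reached 13.43 in sample 5, and Sema3a stood high in sample 5 of odor GFP- (8.70), odor GFP+ (7.85) and vehicle GFP+ (8.02) cells. The arrays numbered 5 had the higher median signals given above. Plxna1 was low in odor GFP- sample 2 (12.60), an array in doubt, and the same pool had a Kirrel2 difference of 3.79, above the next odor value of 1.15. The Kirrel3 difference of vehicle pool 2 was -0.63, also a pool with an array in doubt. Efna5 was high in odor GFP+ sample 3 (15.02).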

How the results depend on the processing

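Over all pools the calls of Epha5 and Pcdh10 held in 18 of 19 alternatives each and ended without pairing of the fractions (adjusted p of 0.187 and 0.132), a limma fit that called 0 of the 9 genes. Array weights called 4, adding Kirrel2 (1.21, adjusted p = 0.0108) and Robo2 (-0.56, adjusted p = 0.0415). Kirrel2 was called in 5 of 19 alternatives, among them quantile normalization (1.41, adjusted p = 0.0248) and centring (1.72, adjusted p = 0.0242). In vehicle pools, where 1 gene was called, quantile normalization, array weights and no pairing called 0, centring and leaving out the 3 pools in doubt called 2, and leaving out 1 pool in turn called 0 to 3. In odor pools, where 0 were called, centring, array weights and leaving out the 3 pools in doubt each called 1, Pcdh10 in each case, and leaving out 1 pool called 0 to 1. The replicate block was run on the 3 odor comparisons only, where limma called 0 of the 9 genes and 0 of all probe sets with and without it. Of 1026 recomputed values 105 had the other sign, none with a call on either side, 17 were newly called and 8 no longer called. Over all probe sets the 1023 higher and 2086 lower calls became 4307 and 1674 with centring, 2156 and 2568 with array weights, 371 and 1422 without pairing, and 608 and 1585 without both pools numbered 5. Sema3a, Pcdh20, Ephb6 and Nrcam lay near or below background, where the size of a fall is poorly resolved.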

Other observations

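The genes most like Kirrel2 over the 20 samples, named after its values were seen, were Dclk3, Cyp2s1 and Lrrc3b, with root mean square differences of 0.70, 0.74 and 0.77 log2 units against an own spread of 1.88. Lrrc3b differed between the fractions by 1.93 (limma adjusted p = 0.000325), Dclk3 by 1.32 (adjusted p = 0.0429) and Cyp2s1 by 1.14 (adjusted p = 0.17).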
